A study of Mus musculus with 4 samples.

Results

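The 49 genes described here encode the machinery that copies DNA. They were chosen by name and function, from origin licensing and the replicative helicase to the polymerases, the sliding clamp with its loader, the single-strand binding proteins, the fork factors and the enzymes that make nucleotides for the fork. All 49 were found by symbol among the 56748 genes of the count table, and all 49 were among the 15167 genes with enough reads to be tested. RNA was sequenced from lungs carrying metastases of 4T1-FLuc, a mouse triple-negative breast cancer line that makes firefly luciferase, which had been injected into the tail vein of female BALB/cJ mice that were 7 weeks old. Saline was given to the control mice (2 libraries). The treated mice (2 libraries) received cmLumiOpto/PARPi for 3 weeks. The first component, cmLumiOpto, is an AAV packed in exosomes that carry an antibody to CD276. Its genes are a luciferase, NLuc, and a light-gated channel, CoChR, that is directed to mitochondria, and the construct's name gives cfos as promoter. ViviRen was the luciferase substrate. The second component was olaparib, an inhibitor of PARP, in the drinking water. Every mouse in both groups carried the tumor, and none of the sequenced libraries came from mice given only one component, so in these libraries the parts of the combination cannot be told apart.

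Replication starts in G1, when the origin recognition complex with CDC6 and CDT1 loads the MCM2-7 ring onto DNA. At the start of S phase the kinases CDK and DDK convert the loaded ring into an active helicase by adding CDC45 and the GINS complex. Polymerase alpha with primase then lays primers, polymerases epsilon and delta extend the leading and lagging strands, and PCNA holds the polymerases on DNA. Many of these genes are targets of E2F factors, so their RNA is abundant in dividing cells and low in resting ones, which makes them a common readout of cycling cells in tumor tissue.

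E2F-type letters stood in many promoters of these genes. RefSeq promoter windows of 300 bases (250 before and 50 after the start, build GRCm38.p6) had an entry for 40 of the 49 genes, and 15 of the 40 (37.5%) held TTTCCCGC, TTTGGCGC, TTTCGCGC or TTTGCCGC on either strand. Of all 27025 genes with a RefSeq window, 704 (2.61%) did, and among the 11023 tested genes with an entry 489 (4.44%) did. The 15 were Cdc6, Cdt1, Gins3, Lig1, Mcm3, Mcm5, Mcm6, Mcm7, Orc1, Orc3, Pola1, Pold1, Pold3, Pole2 and Rfc3. The 170 bases before the start are printed for 4 of them, because the same letters stand before genes whose RNA levels differed between the groups in different ways: Mcm6 and Pola1 were lower in both treated libraries than in both saline libraries, Orc1 was higher, and Mcm5 overlapped. Each sequence runs 5′ to 3′ toward the gene, and capitals mark the matched letters, with overlapping matches joined.
Mcm6, chr1:128359706-128359875, minus strand: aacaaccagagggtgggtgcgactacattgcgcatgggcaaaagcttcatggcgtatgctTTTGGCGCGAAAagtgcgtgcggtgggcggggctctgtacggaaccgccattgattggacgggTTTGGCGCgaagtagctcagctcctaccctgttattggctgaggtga
Pola1, chrX:93632156-93632325, minus strand: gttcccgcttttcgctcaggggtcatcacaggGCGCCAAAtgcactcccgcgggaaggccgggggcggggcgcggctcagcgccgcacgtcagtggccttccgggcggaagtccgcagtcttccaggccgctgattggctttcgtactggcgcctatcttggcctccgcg
Mcm5, chr8:75109339-75109508, plus strand: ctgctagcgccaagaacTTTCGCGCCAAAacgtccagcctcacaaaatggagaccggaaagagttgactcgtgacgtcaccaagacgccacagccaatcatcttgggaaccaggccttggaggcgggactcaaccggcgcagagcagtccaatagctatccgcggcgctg
Orc1, chr4:108579284-108579453, plus strand: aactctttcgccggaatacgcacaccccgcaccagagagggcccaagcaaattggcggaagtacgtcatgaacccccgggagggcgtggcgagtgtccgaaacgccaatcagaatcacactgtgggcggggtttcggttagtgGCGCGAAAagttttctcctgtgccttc
The 12 joined capitals of Mcm5 were the reverse complement of the first 12 in Mcm6. By direction, the letters were found in 6 of 10 genes with an entry that were lower in both treated libraries (60%), 3 of 11 that were higher (27.3%) and 6 of 19 whose groups overlapped (31.6%). The same split over all genes tested was not counted. A link between the letters and direction was not tested.

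Across the machinery no uniform shift was measured. No member passed an adjusted p of 0.05 in edgeR's quasi-likelihood test (0 of 49), nor did any of the 15167 genes tested (0%, smallest adjusted p 0.138). DESeq2 called 929 genes and edgeR's exact test 815, and of the members DESeq2 called Pole alone while the exact test called 0. At an unadjusted p under 0.05, 5 members were higher with treatment (10.2%, against 9.21% of all genes tested) and 5 were lower (10.2%, against 12.0%), which is near the background in both directions. These counts moved when single libraries were left out. The same shares over all genes tested were not counted for those fits, so that change has no background. Levels are given as CPM, the reads of a gene scaled to the library's total, after TMM scaling. Every treated value exceeded every saline value for 16 members (32.7%, against 27.4% of all genes), every treated value was under every saline value for 12 (24.5%, against 27.8%), and the groups overlapped for 21. The median log2 fold change, treated over saline, was -0.02 over the members and 0.02 over all genes tested. The members' median was -0.090 without treated replicate 2 and 0.050 without saline replicate 2, so its sign rested on single libraries. With 2 libraries against 2, an exact two-sided permutation test of a single value cannot give a p below 0.333, and since each library is a piece of tissue, fewer cycling cells and less RNA per cell cannot be told apart.

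**Figure D1:**
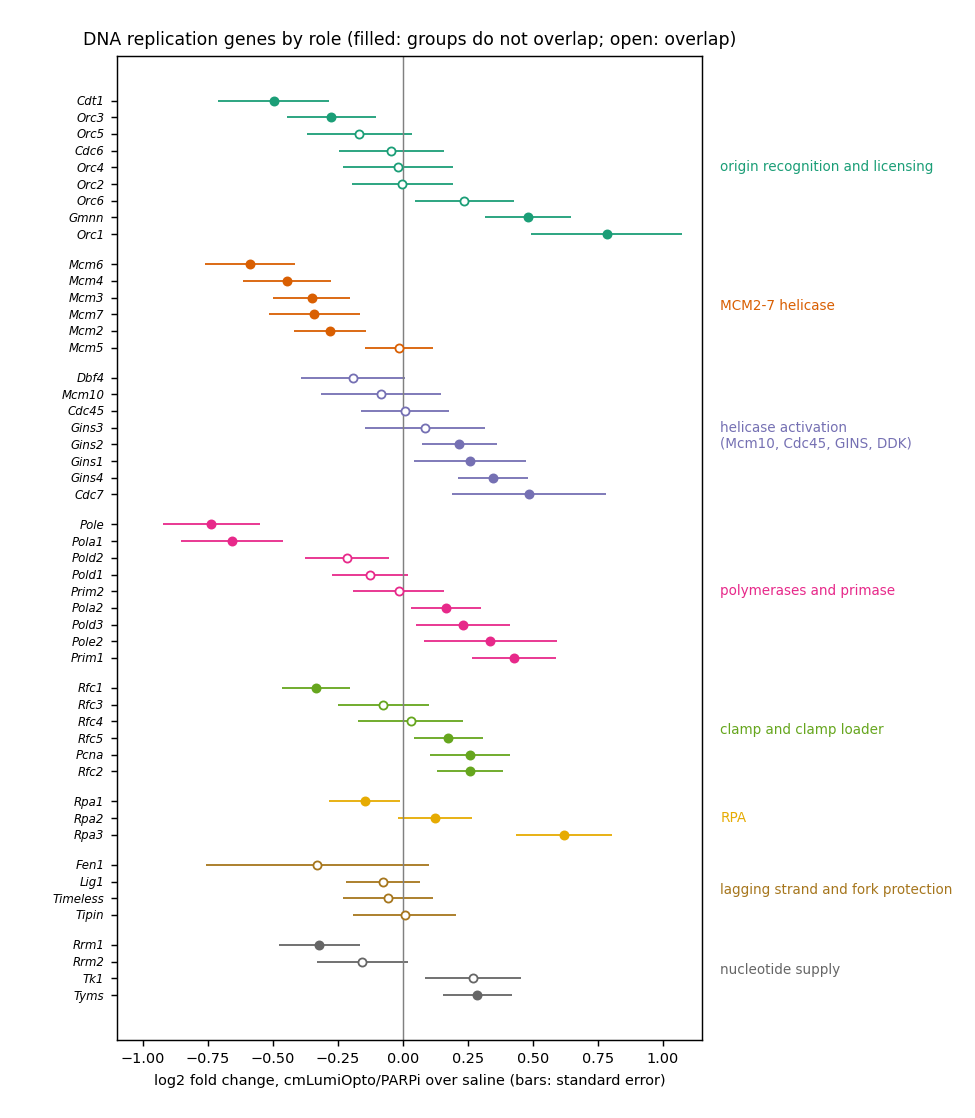
Log2 fold change (cmLumiOpto/PARPi over saline, horizontal axis) of each of the 49 replication genes, grouped by role, with bars of 1 standard error derived from edgeR's test statistic. Filled points are genes whose groups do not overlap, open points genes whose groups overlap. The MCM2-7 genes lie at or left of 0, from -0.59 for Mcm6 to -0.01 for Mcm5, while most other roles have genes on both sides.

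RNA of lung cell types was present beside that of the tumor, at levels that differed between the libraries. Epithelial genes listed for the tumor, which lung epithelium can also express, summed to between 2888 and 4009 CPM in the 4 libraries (1 of 11 tested genes higher and 1 lower at an unadjusted p under 0.05). This sum does not measure the tumor's RNA alone. Over all genes tested, 9.21% were higher and 12.0% lower at that p. Alveolar type 2 markers summed to 1799 and 480 CPM with saline and 8916 and 3052 CPM with treatment (8 of 9 higher). The remaining 1 of the 9 was lower in both treated libraries. Alveolar type 1 markers summed to 345 and 137 against 1018 and 495 CPM (4 of 7 higher). Airway club markers summed to 1151 and 82.2 against 5694 and 3181 CPM (5 of 5 higher), and ciliated markers to 14.7 and 6.88 against 75.9 and 43.3 CPM (7 of 8 higher). Fibroblast markers summed to 5170 and 3584 CPM with saline and 1703 and 1896 CPM with treatment (6 of 8 lower, 1 higher). The other lists split less clearly at the same p: endothelium 1 of 8 higher, cardiac muscle 1 of 3, neutrophil 1 of 8 lower, granulocyte precursor 0 of 7, macrophage 2 higher and 1 lower of 8, T cell 0 of 8, B and plasma cell 2 of 6 higher, and erythroid 0 of 6. No marker in any list was at 0 in all 4 libraries. Treated replicate 1 had the lower level of the treated pair for 37 of the 49 members. The same share over all genes tested was not counted, so this number has no background. The part of tissue makeup in the values below was not tested.

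The MCM2-7 ring, the motor of the replicative helicase, was the role with the most one-sided values. It was singled out after the values were seen, and its genes, measured in the same libraries, are not independent. Both treated libraries lay below both saline libraries for 5 of its 6 genes (83.3%, against 27.8% of all genes tested), and the median log2 fold change was -0.35. At an unadjusted p under 0.05, 2 of the 6 were lower (12.0% of all genes tested were) and 0 were higher (9.21% were). Summed over the ring, the level was 1198 and 1223 CPM with saline and 861 and 1046 CPM with treatment. Mcm6 stood at 311 and 304 CPM with saline and at 177 and 231 CPM with treatment, 0.664-fold, with a log2 fold change of -0.59 ± 0.17 (SE, adjusted p = 0.165). Every treated value lay well under the saline values, which were close together. Without treated replicate 1 its log2 fold change was -0.41, and without treated replicate 2 it was -0.82. The Mcm4 level was 131 and 146 CPM against 88.7 and 114 CPM (-0.45 ± 0.17, adjusted p = 0.217). For Mcm3 the values were 190 and 180 CPM against 132 and 158 CPM (-0.35 ± 0.15, adjusted p = 0.247). Mcm7 gave 214 and 240 CPM against 157 and 202 CPM (-0.34 ± 0.17, adjusted p = 0.311). Its span overlaps Ap4m1 (254 to 339 counts) and Cops6 (2093 to 2587 counts) on the opposite strand, so its reads are less certain. Mcm2, one of the subunits that DDK phosphorylates, gave 158 and 154 CPM against 119 and 138 CPM (-0.28 ± 0.14, adjusted p = 0.304). In all 6 genes of the ring treated replicate 2 was higher than treated replicate 1. The size of the difference rested on which treated library was used: without treated replicate 1 the log2 fold change was -0.27 for Mcm4, -0.23 for Mcm3, -0.17 for Mcm7 and -0.18 for Mcm2, and without treated replicate 2 it was -0.66, -0.51, -0.56 and -0.41.

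Mcm5 was the exception in the ring. Its level was 195 and 199 CPM with saline and 188 and 202 CPM with treatment, so its groups overlapped (log2 -0.01 ± 0.13, adjusted p = 0.963). The ring holds its subunits in equal number. Shares of its RNA are given per kb of gene length, which need not be the length of the transcripts made. Mcm5 made up 17.8% and 17.8% of the ring's summed CPM per kb with saline and 23.8% and 21.1% with treatment. Mcm6 made up 24.4% and 23.3%, then 19.2% and 20.7%. Per length, Mcm6 was thus the larger share in both saline libraries and Mcm5 the larger in both treated libraries. This pair too was picked after its values were seen. By CPM the log2 ratio of Mcm6 to Mcm5 was 0.67 and 0.61 with saline and -0.08 and 0.20 with treatment. By CPM the order therefore changed only in treated replicate 1. The share of Mcm5 rose because the other genes were lower, while its own groups overlapped. Mcm2 was the smallest share in every library, at 7.90% to 8.65%, and had the longest gene length of the ring (6956 bases). By CPM alone Mcm2 lay above Mcm4 in every library.

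**Figure D2:**
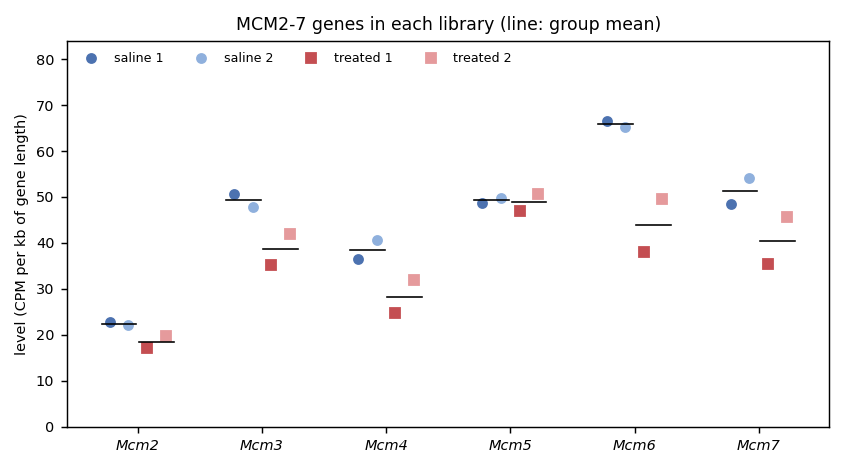
Level (CPM per kb of gene length) of each MCM2-7 gene in the 2 saline libraries (circles) and 2 cmLumiOpto/PARPi libraries (squares), each point a library and each line a group mean. Mcm6 lies at 66.6 and 65.2 CPM per kb with saline and at 38.0 and 49.6 CPM per kb with treatment, while the 4 values of Mcm5 lie between 47 and 50.6 CPM per kb.

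Origin recognition and licensing, 9 genes, showed values in both directions, with a median log2 fold change of -0.02. Orc1, an ATP-binding subunit of ORC, was the highest by fold change of all 49 members: 4.39 and 4.36 CPM with saline and 7.43 and 7.64 CPM with treatment, 1.72-fold (log2 0.78 ± 0.29, adjusted p = 0.211). Its level was among the lowest of the members, from 70 and 64 reads with saline and 129 and 127 with treatment. Its replicates lay close together in each group, but with so few reads and libraries that closeness does not measure the spread. Geminin, Gmnn, which binds CDT1 and blocks reloading of the ring, gave 20.8 and 22.9 CPM against 30.3 and 30.7 CPM (log2 0.48 ± 0.17, adjusted p = 0.194). Cdt1, the loader that geminin restrains, lay the other way, at 93.4 and 114 CPM against 60.1 and 86.5 CPM (log2 -0.50 ± 0.21, adjusted p = 0.251). Its log2 fold change was -0.26 without treated replicate 1 and -0.80 without treated replicate 2. The log2 ratio of Gmnn to Cdt1 was -2.17 and -2.31 with saline and -0.99 and -1.49 with treatment, a pair picked after its values were seen. The difference of 1.00 was 0.81 with the length trend of all genes removed. Orc3 gave 33.9 and 37.3 CPM against 32.0 and 26.8 CPM (log2 -0.28 ± 0.17, adjusted p = 0.392), and -0.18 without treated replicate 2. Groups overlapped for the other 5 genes, Orc2, Orc4, Orc5, Orc6 and Cdc6, whose log2 fold changes ran from -0.17 to 0.24.

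Of the 8 genes that turn the loaded ring into a moving helicase, 4 were higher in both treated libraries (27.4% of all genes tested were), 0 were lower in both (27.8% were), and the median log2 fold change was 0.15. The median was 0.06 with the length trend of all genes removed. Gins4, a subunit of the GINS complex that joins MCM2-7 and CDC45, gave 46.0 and 43.2 CPM with saline and 56.3 and 57.0 CPM with treatment (log2 0.35 ± 0.14, adjusted p = 0.228). Cdc7, the catalytic subunit of DDK, gave 8.09 and 8.65 CPM against 14.2 and 9.27 CPM (log2 0.48 ± 0.30, adjusted p = 0.386). In Cdc7 treated replicate 1 stood well above the other 3 libraries, and the log2 fold change was 0.15 without it and 0.74 without treated replicate 2. Gins1 and Gins2 were also higher in both treated libraries, with log2 fold changes of 0.26 and 0.22 (0.01 and 0.21 with the length trend removed). Gins3, Cdc45, Mcm10 and the DDK subunit Dbf4 overlapped, between -0.19 and 0.08.

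The polymerases and primase, 9 genes, held the lowest fold change of all members, that of Pole. Pole, the catalytic subunit of leading-strand polymerase epsilon, gave 68.2 and 55.2 CPM with saline and 32.9 and 41.1 CPM with treatment, 0.600-fold (log2 -0.74 ± 0.19, adjusted p = 0.145). Pola1, the catalytic subunit of polymerase alpha, gave 43.3 and 57.5 CPM against 29.6 and 34.2 CPM (log2 -0.66 ± 0.19, adjusted p = 0.166). Groups were separate for both genes. In Pola1 the saline values lay farther from each other than the lower of them lay from the treated values. Prim1, the catalytic primase that works in a complex with POLA1, gave 25.8 and 29.3 CPM against 35.8 and 38.4 CPM, the other direction (log2 0.43 ± 0.16, adjusted p = 0.216). The accessory subunits Pole2, Pold3 and Pola2 were higher in both treated libraries, with log2 fold changes of 0.34, 0.23 and 0.17 and adjusted p of 0.481 to 0.509. Pold1, the catalytic subunit of polymerase delta, overlapped (log2 -0.13), as did Pold2 and Prim2, at -0.22 and -0.02.

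Ratios between subunits of these complexes are given for pairs picked after their values were seen, and so with no test. The log2 ratio of Pole2 to Pole was -3.09 and -2.38 with saline and -1.49 and -1.79 with treatment. For Prim1 over Pola1 it was -0.74 and -0.97, then 0.27 and 0.17. Pola2 over Pola1 gave 0.07 and -0.32, then 0.81 and 0.57. In each of the 3 pairs the treated ratios exceeded the saline ratios with no overlap. The treated minus saline difference was 1.09 for Pole2 over Pole, 1.08 for Prim1 over Pola1 and 0.81 for Pola2 over Pola1. With the length trend of all genes removed it was 0.66, 0.83 and 0.80.

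**Figure D3:**
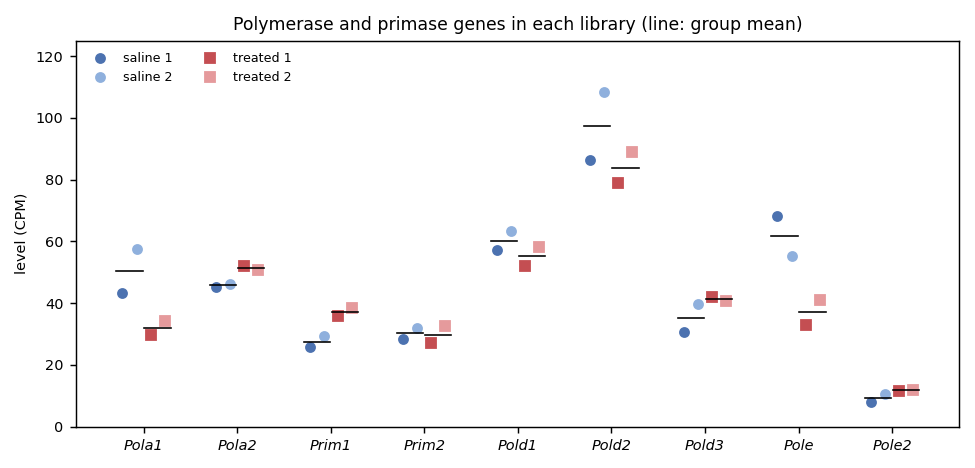
Level (CPM) of the 9 polymerase and primase genes in the 2 saline libraries (circles) and 2 cmLumiOpto/PARPi libraries (squares), each point a library and each line a group mean. Pole lies between 55.2 and 68.2 CPM with saline and between 32.9 and 41.1 CPM with treatment, and Prim1 between 25.8 and 29.3, then 35.8 and 38.4 CPM.

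PCNA, the sliding clamp, had the highest level per length of all members, at 64.1 CPM per kb as the mean of the 4 libraries. Pcna gave 127 and 153 CPM with saline and 158 and 177 CPM with treatment (log2 0.26 ± 0.16, adjusted p = 0.380). The groups did not overlap, but the distance between the upper saline value and the lower treated value was small. The pseudogene Pcna-ps2, which could share reads with it, had 17 to 21 counts. The log2 fold change of Pcna was 0.11 without saline replicate 1 and 0.15 without treated replicate 2. The clamp is opened by replication factor C, whose large subunit Rfc1 gave 106 and 101 CPM against 77.6 and 86.2 CPM (log2 -0.33 ± 0.13, adjusted p = 0.226). The small subunit Rfc2 gave 66.8 and 63.8 CPM against 79.2 and 77.0 CPM (log2 0.26 ± 0.13, adjusted p = 0.298). Rfc1 and Rfc2 thus lay in opposite directions. Rfc5 was higher in both treated libraries (log2 0.17), and Rfc3 and Rfc4 overlapped at -0.08 and 0.03.

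RPA, the trimer that coats single-stranded DNA, showed the same kind of split. Rpa3, its smallest subunit, gave 22.8 and 29.5 CPM with saline and 40.9 and 39.4 CPM with treatment (log2 0.62 ± 0.19, adjusted p = 0.168). Rpa2 was higher in both treated libraries (log2 0.12) and Rpa1, the large DNA-binding subunit, was lower in both (log2 -0.15). The log2 ratio of Rpa3 to Rpa1, a pair also picked after its values were seen, was -2.75 and -2.44 with saline and -1.70 and -1.94 with treatment. The difference of 0.78 became 0.39 with the length trend removed.

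Among the genes for nucleotide supply, Tyms, which makes thymidylate, gave 49.6 and 47.8 CPM with saline and 60.4 and 58.3 CPM with treatment (log2 0.29 ± 0.13, adjusted p = 0.279). Rrm1, the large subunit of ribonucleotide reductase, gave 162 and 165 CPM against 117 and 145 CPM (log2 -0.32 ± 0.15, adjusted p = 0.292), with -0.17 without treated replicate 1 and -0.51 without treated replicate 2. Its partner Rrm2 and the thymidine kinase Tk1 overlapped, at -0.16 and 0.27. The 4 genes of the lagging strand and fork protection, Fen1, Lig1, Timeless and Tipin, all overlapped, from -0.33 to 0.01. Fen1 had the lowest level per length, 1.35 CPM per kb, from 64 and 48 reads with saline and 63 and 36 with treatment. It overlaps Tmem258 on the opposite strand, which had 931 to 1628 counts, and whether the counting used strand is not known. The same doubt holds for the other 11 members that overlap an expressed protein-coding gene, Cdc45, Gins2, Lig1, Mcm7, Orc2, Orc4, Orc6, Rfc2, Rfc4, Rfc5 and Tk1.

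Gene length, as listed with the counts, moved with the fold changes, in the members as in the whole table. Across genes the Spearman correlation of the log2 fold change with gene length was -0.41 over the 49 members and -0.37 over the 15167 genes tested. Genes within the same libraries are not independent, so these are descriptions. The 24 shorter members (1136 to 4097 bases) had a median log2 fold change of 0.06 with 15 above 0, and the 24 longer ones (4227 to 11160 bases) a median of -0.10 with 6 above 0. The member in the middle, Cdc7, was in neither set. When the length trend was removed library by library, the correlation over the members was 0.06. Pole then stood at -0.43, Pola1 at -0.42, Rpa3 at 0.34, Gmnn at 0.23, Gins4 at 0.08 and Rrm1 at -0.02. Mcm2 stood at -0.12, Pcna at 0.10, Orc3 at -0.15, Rfc1 at -0.22 and Rfc2 at 0.39. Mcm6 at -0.55, Mcm4 at -0.49, Cdt1 at -0.58, Orc1 at 0.73 and Prim1 at 0.41 differed by less than 0.1 from their values before the correction. The median of the MCM2-7 genes was -0.35 both before and after, although Mcm2 moved.

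**Figure D4:**
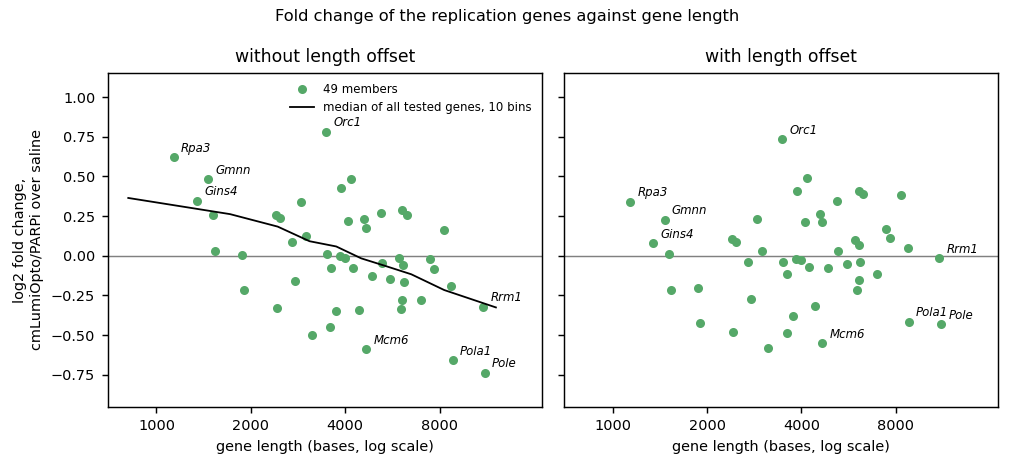
Log2 fold change of the 49 members (cmLumiOpto/PARPi over saline) against gene length in bases on a log axis, before (left) and after (right) the length trend of all genes was removed. The line on the left is the median of all tested genes in 10 bins of length. The Spearman correlation over the members is -0.41 before and 0.06 after.

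The other genes of the pathway gave no call either (0 past an adjusted p of 0.05 in each list). Of 51 tested other replication genes, such as clamp unloaders, chromatin assembly factors and translesion polymerases, 5 were higher and 8 lower at an unadjusted p under 0.05 (over all genes tested, 9.21% were higher and 12.0% lower), with a median log2 fold change of -0.01. Without overlap between the groups, 13 were higher and 16 lower, where all genes tested gave 27.4% and 27.8%. Among 35 G1/S control genes 0 were higher and 5 lower (median -0.07), and among 15 genes of the ATR-CHK1 checkpoint, which slows the cycle when forks stall, 0 were higher and 3 lower (median -0.23). Without overlap, 7 of the 35 were higher and 7 lower, and 2 of the 15 were higher and 8 lower. With the length trend removed the medians were -0.04 and -0.11. E2f1, an activator of the replication genes, gave 42.3 and 44.6 CPM with saline and 36.4 and 42.3 CPM with treatment (log2 -0.14). The cyclin genes Ccne1 (log2 0.26) and Ccna2 (-0.09) and the kinase gene Chek1 (-0.02) had adjusted p of 0.559 to 0.969. Of 30 mitosis and proliferation genes, 2 were higher and 6 lower, with a median of -0.22 (-0.17 with the length trend removed). Without overlap, 5 of the 30 were higher and 15 lower. Mki67, a marker of cycling cells, gave 281 and 302 CPM against 166 and 206 CPM (log2 -0.65 ± 0.16, adjusted p = 0.143), and Top2a gave 499 and 477 CPM against 335 and 435 CPM (-0.34, adjusted p = 0.320). With the length trend removed Mki67 stood at -0.37 and Top2a at -0.10. Mki67 and 5 of the 6 MCM2-7 genes were thus lower in both treated libraries, as were 27.8% of all genes tested. Pcna, Gmnn and Prim1, named after their values were seen, were among the 16 of 49 members higher in both, while 12 members were lower. Over all genes tested 27.4% were higher in both. With the length trend removed Pcna stood at 0.10, Gmnn at 0.23 and Prim1 at 0.41.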

How the data were processed

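Lungs with 4T1-FLuc metastases were profiled by RNA-seq in 2 saline and 2 cmLumiOpto/PARPi libraries. The labels call the material tumor cells taken from lungs and the control PBS, while the study's methods call them lung tissue and saline, and the latter terms are used. The deposited values are raw read counts per gene, made by the authors from reads aligned with HISAT2. The study's methods name GRCm38 and the submitters' processing notes name mm39. Only 2.76% of 52073 genes had the position that GENCODE M21 (GRCm38) gives, so no position from the table is printed. The counting tool and its strand setting are not given in the sources used here. The table holds no comparisons by the authors, and 0 of its sample columns were unmapped.

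Totals were 16086720 and 15263375 counts (saline) and 16755228 and 16509603 counts (treated), so 3 counts equal 0.173 to 0.204 CPM. The spread between replicates exceeded that of counting alone, with a chi-square per degree of freedom of 24.1 (saline) and 41.1 (treated). Libraries were each counted as 1 sample. The sources do not say that every library came from its own mouse, so p-values measure the spread between these samples.

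Counts were filtered (filterByExpr, minimum count 10), scaled by TMM and tested in edgeR 4.0.16 (R 4.3.3) with glmQLFit and glmQLFTest over all genes, with Benjamini-Hochberg adjustment and a threshold of 0.05. The script was tested on simulated data. DESeq2 1.42.0, the exact test, other scaling and filtering, a replicate block, a length offset (loess, span 0.5, on log2 CPM with a prior count of 2) and leaving out each library were alternatives. The SE of a log2 fold change is its absolute value divided by the square root of the F statistic of edgeR's quasi-likelihood test. Groups did not overlap where both libraries of one lay above both of the other. Level per length is CPM per kb of the table's gene length. Members, gene lists and marker lists were chosen with earlier results of these data known. Members given in full were those with an unadjusted p under 0.05, then the next by p up to 20. Promoter sequences are from RefSeq (GRCm38.p6).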

Additional observations from a re-analysis of the deposited data

How the results depend on the processing

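The number of genes past an adjusted p of 0.05 was 0 with RLE scaling, with the newer quasi-likelihood method and with the length offset, but 929 with DESeq2, 815 with the exact test and 2000 with no filter on low counts, and it was 0 to 31 when a library was left out. Of the 49 members, 1 passed with DESeq2 (Pole), beside 929 genes, and 3 with no filter (Mcm6, Pola1 and Pole), beside 2000 genes. The genes tested in those fits were not counted, so no shares are given. At an unadjusted p under 0.05, the counts of lower and of higher members moved when a library was left out. The higher members numbered 1 with DESeq2, 2 with the exact test and 3 with no filter. The same counts over all genes tested were not made for these fits, so they have no background. The members' median log2 fold change ranged from -0.090 (without treated replicate 2) to 0.050 (without saline replicate 2). The cause of these differences was not tested. The members given in full were chosen by p, so their keeping one sign is no sign of stability, and of the 348 alternative values of the other members 48, in 17 genes, changed sign.

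With the replicate block 1822 of the 15167 genes tested and 4 of the 49 members (Cdt1, Mcm6, Pola1 and Pole) passed. With this block 9 of the 49 were lower at an unadjusted p under 0.05. The same count over all genes was not made for this fit, so it has no background. With the replicate block and the length offset together 961 of the 15167 genes and 1 of the 49 members (Cdt1) passed. Deviations of same-numbered libraries from their group means had a Spearman correlation of 0.298 across genes. With 2 numbers, shared by mice of different groups, this does not establish a pairing.

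With 2 libraries a group, the spread within a group is poorly known. The lowest member count was 36 (Fen1), so depth limits few members.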
